A study of Mus musculus with 14 samples.

Results

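The genes described here encode the mitochondrial respiratory chain and ATP synthase, read from bulk RNA sequencing of mouse brain. They are the 13 protein-coding genes of the mitochondrial genome together with 85 protein-coding nuclear genes whose symbols name a subunit of complexes I to V, 98 of the 48440 genes counted. Each has at least 10 reads in at least 2 libraries, and of 99 genes picked by name only Cox8c had fewer. In the mitochondrial genome 7 of the genes belong to complex I, 1 to complex III, 3 to complex IV and 2 to complex V. The nuclear members comprise 38 for complex I, 4 for complex II, 9 for complex III, 17 for complex IV and 17 for complex V. Symbols decided the assignment, so it holds for a few genes only in name: Ndufa4 is counted here under complex I and is now regarded as a complex IV subunit, Ndufa4l2 and Cox7a2l are relatives of subunits, and Atp5s encodes a factor related to ATP synthase.

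The groups were knockout (KO) mice of the genotype CARIP-/- and wild-type (WT) mice, all of the strain C57BL/6, for which the labels give no substrain, sex or age. Cerebellum was represented by 3 KO and 3 WT libraries, cerebral cortex by 2 KO and 2 WT, and hippocampus by 2 KO and 2 WT. The titles of the libraries called cortex here read Cerebrum. No gene in the annotation used carries the name CARIP, so the level of the deleted gene is not reported and how the allele was made is not given in the sources used here. Nothing in the labels says which libraries came from separate mice, so the p-values measure the spread between these libraries.

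Electrons from NADH enter the chain at complex I and those from succinate at complex II. They pass through complex III and cytochrome c to complex IV, which reduces oxygen, and the proton gradient built on the way drives ATP synthase, complex V. The mitochondrial genome is transcribed from both strands as long precursors that are cut into single RNAs, and mt-Nd6 is the only protein gene read from the light strand. All other subunits, including the whole of complex II, come from the nucleus, where promoters of respiratory genes are known for sites of NRF1, of GABP (an ETS factor) and of YY1, with coactivators of the PGC-1 family. Neurons draw most of their ATP from this pathway.

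Summed marker genes were highest in the libraries of the region on the label. The summed level of 7 cerebellar markers was 2183 to 3785 CPM (a share of the counted reads, on TMM-scaled totals) in cerebellum and 73.3 to 168 CPM in the other libraries, that of 7 cortical markers 812 to 1384 CPM in cortex and at most 431 CPM elsewhere, and that of 7 hippocampal markers 410 to 659 CPM in hippocampus and 33.8 to 134 CPM elsewhere. Totals were 20055166 to 38770999 reads per library. Some libraries stood apart. KO cortex 2 had 38770999 reads, the most of all, and the lowest cortical markers of its region, 812 CPM against 1313 to 1384 CPM. It also had 105 CPM of hippocampal markers against 33.8 to 38.8 CPM in the other cortical libraries, 425 CPM of thalamic markers against 87.0 to 106 CPM, 318 CPM of striatal markers against 61.5 to 78.4 CPM in the other cortical libraries, 509 CPM of choroid plexus markers against 12.6 to 30.3 CPM, and 8671 CPM of nuclear-retained RNAs against 23535 to 27050 CPM. WT cerebellum 2 had 8872 CPM of oligodendrocyte markers, and the other cerebellar libraries 2332 to 4471 CPM. Choroid plexus markers were at 28.9 CPM in WT cerebellum 1 against 661 to 1449 CPM in the other cerebellar libraries, and at 1074 CPM in WT hippocampus 2 against 76.6 to 124 CPM in the other hippocampal libraries. Calls of named members that were lost without KO cortex 2 or WT cerebellum 2 are stated below. Whether the tissue dissected contributed to a result was not tested, and in bulk tissue fewer cells of a type and less RNA per cell cannot be told apart.

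Sequences are shown for the places where the results below turn on them. The first pair is the start of mt-Nd3, a complex I subunit, and the same stretch of Gm28438, a nuclear copy of it on chromosome 1. Over the 345 bases that align, the pair differs at a single base, T3C counted from the first base of mt-Nd3, which is mitochondrial coordinate 9461. The capital letter marks that base, and the stretches are chrM:9459-9491 on the plus strand and chr1:24613087-24613119 on the minus strand of GRCm38.

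mt-Nd3: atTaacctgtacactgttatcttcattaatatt
Gm28438: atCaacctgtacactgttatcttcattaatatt

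The next sequences are the 250 bases before the start of 3 nuclear genes whose levels differed most clearly between cerebellum and the other regions, from RefSeq (GRCm38.p6). Ndufb2 is shown from chr6:39592315-39592564 on the plus strand, Cox8a from chr19:7217617-7217866 on the minus strand and Cox7a1 from chr7:30183921-30184170 on the plus strand. Capitals mark CCAAT, in either orientation, and in Ndufb2 also TGACGTCA, the cAMP response element (CRE).

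Ndufb2: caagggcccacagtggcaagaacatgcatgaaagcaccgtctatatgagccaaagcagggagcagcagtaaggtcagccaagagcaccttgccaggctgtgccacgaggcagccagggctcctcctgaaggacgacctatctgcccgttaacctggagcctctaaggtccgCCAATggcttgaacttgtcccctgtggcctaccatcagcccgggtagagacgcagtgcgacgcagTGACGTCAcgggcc
Cox8a: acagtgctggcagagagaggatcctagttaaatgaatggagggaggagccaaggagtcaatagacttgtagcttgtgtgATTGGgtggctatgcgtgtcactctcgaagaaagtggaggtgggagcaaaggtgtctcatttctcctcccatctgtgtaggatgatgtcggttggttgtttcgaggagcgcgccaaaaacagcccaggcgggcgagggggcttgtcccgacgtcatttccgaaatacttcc
Cox7a1: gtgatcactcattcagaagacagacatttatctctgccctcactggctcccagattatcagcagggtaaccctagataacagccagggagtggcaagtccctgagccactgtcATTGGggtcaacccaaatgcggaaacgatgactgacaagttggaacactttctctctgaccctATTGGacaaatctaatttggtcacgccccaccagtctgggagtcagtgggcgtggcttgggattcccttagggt

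RefSeq promoters were found for 69 of the 85 nuclear members, and motifs were searched on both strands from 250 bases before to 50 bases after each start. The ETS letters CCGGAAG occurred in 23.19% of member promoters and in 9.93% of all. A motif of NRF1 occurred in 7.25% of member promoters (5 genes) and in 1.07% of all. That of YY1 occurred in 5.8% (4 genes) and in 0.75% of all. TGACGTCA occurred in 4 members (5.8%), namely Ndufa10, Ndufa11, Ndufb2 and Uqcrfs1, against 2.03% of all promoters, and CCAAT in 43.48% against 41.06%. These shares describe letters in a window and no binding.

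Reads assigned to mitochondrial transcripts outnumbered those of nuclear ones by far, and a few mitochondrial genes held most of them. Per kilobase of exon, mt-Co1, the catalytic subunit of complex IV, had the highest level of all members, 8980 CPM per kilobase averaged over the 14 libraries. mt-Cytb, the only complex III gene of the mitochondrial genome, followed with 2789 CPM per kilobase, and mt-Nd1, mt-Nd4 and mt-Nd5 of complex I had 2421, 1546 and 1420. The light-strand gene mt-Nd6 stood at 760 on the same scale. Among nuclear members the leading gene of complex IV was Cox8a with 305 CPM per kilobase, that of complex V Atp5b, the catalytic beta subunit, with 173, that of complex II Sdha, the flavoprotein subunit, with 71.5, that of complex III Uqcr10, a small accessory subunit, with 54.7, and that of complex I Ndufa4 with 51.5. Per-length levels divide by all annotated exons of a gene, including those of long minor transcripts, which lowers them for some genes. Mitochondrial genes with near-identical nuclear copies, such as mt-Co2, mt-Co3 and mt-Atp6, cannot be ranked with certainty, as described below.

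The 13 mitochondrial mRNAs took 2.01%, 2.53% and 2.09% of reads in KO cerebellum and 1.88%, 3.01% and 2.20% in WT cerebellum. In cortex the shares were 3.07% and 3.5% in KO and 2.08% and 2.51% in WT, and in hippocampus 2.95% and 2.88% in KO and 2.63% and 2.85% in WT. KO lay above WT without overlap in cortex and hippocampus, and the genotypes overlapped in cerebellum. With 2 libraries against 2, an exact permutation test cannot reach 0.05, so these shares carry no test. The nuclear members took 0.451% to 0.623% of reads. The ratio of mitochondrial to nuclear reads was 3.96, 4.4 and 4.28 in KO cerebellum and 3.68, 4.84 and 4.23 in WT cerebellum. It was 6.71 and 5.62 in KO cortex against 4.21 and 5.56 in WT cortex, and 6.16 and 5.65 in KO hippocampus against 5.03 and 5.39 in WT hippocampus. Of the reads assigned to mitochondrial mRNAs, mt-Co1 alone held 50% to 56.8% in the 14 libraries. mt-Co2, mt-Co3 and mt-Atp6 share 99.5% to 100% of their 50-base stretches with other annotated genes. How reads of such stretches were counted is not known, so the shares and ratios above are uncertain.

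**Figure D1:**
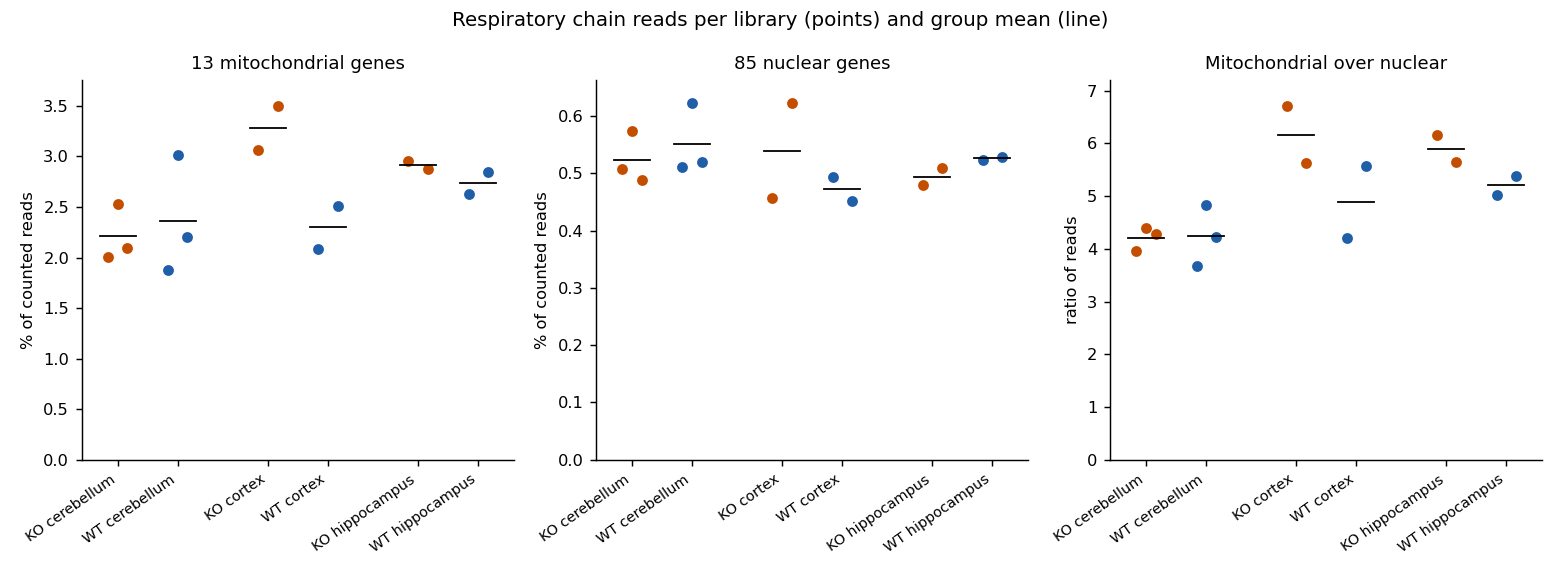
Share of counted reads from the 13 mitochondrial genes (left, percent) and the 85 nuclear genes (middle, percent), and their ratio (right), for each library (points) with group means (lines), KO left of WT in each region. The KO cortex libraries sit at 3.07% and 3.5% mitochondrial reads, above the WT cortex libraries at 2.08% and 2.51%, while the 3 cerebellar libraries of each genotype overlap.

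The first comparison asked whether loss of CARIP changes respiratory chain transcripts in each region. Of the 97 members tested (all but Cox7b2, which had too few reads), edgeR's quasi-likelihood test called 0 in cerebellum, 0 in cortex and 0 in hippocampus, as it did over all 24680 genes (0% called in each). DESeq2 also called 0 members in each region, and over all genes 2 higher and 0 lower in cerebellum, 32 higher and 15 lower in cortex and 0 higher and 2 lower in hippocampus. At an unadjusted p under 0.05, 0 members differed in cerebellum, beside 1.47% of all genes higher and 1.71% lower, and 0 in hippocampus, beside 1.11% higher and 0.798% lower. In cortex 19 were higher in KO, 10 mitochondrial and 9 nuclear, and 0 lower, beside 4.52% higher and 2.88% lower over all genes.

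In cortex the members ran higher in KO as a group. The log2 fold change was above 0 for 12 of 13 mitochondrial members (median 0.62) and for 79 of 84 nuclear members (median 0.27), while the median over all genes tested was 0.019. mt-Nd4l, a small complex I subunit, had 57.3 and 68.7 CPM in KO cortex, against 45.1 and 37.2 CPM in WT cortex. All KO values lay above all WT values, with a log2 fold change of 0.62 ± 0.18 (SE) and an adjusted p of 0.658. With the reads of its nuclear copy Gm10222 added, it had 146 and 285 CPM in KO cortex and 176 and 132 CPM in WT cortex, and the genotypes overlapped. mt-Nd4, one of the proton-pumping subunits, had 2533 and 4022 CPM in KO cortex and 1879 and 1849 CPM in WT cortex, a log2 fold change of 0.81 ± 0.25 with an adjusted p of 0.658. mt-Nd5, another of them, had 3348 and 4698 CPM in KO cortex and 2389 and 2533 CPM in WT cortex (log2 fold change 0.71 ± 0.23, adjusted p = 0.662). mt-Co1 followed with 16480 and 20135 CPM in KO cortex and 11115 and 14323 CPM in WT cortex (0.53 ± 0.22 on the log2 scale, adjusted p = 0.675). The light-strand gene mt-Nd6 overlapped between genotypes, at 510 and 356 CPM in KO cortex and 189 and 433 CPM in WT cortex. mt-Nd3 alone among mitochondrial members had a fold change below 0. With the reads of Gm28438 added, mt-Nd3 had 41.4 and 50.6 CPM in KO cortex and 29.8 and 36.9 CPM in WT cortex, so its direction turned.

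Levels lay higher in every KO cortex library than in every WT one for 10 of 13 mitochondrial and 16 of 84 nuclear members, where 14% of all genes did so, and lower for 0 of both, where 13.3% of all genes did so. The nuclear ones included Cox6a1, Cox5a, Sdhd, Uqcrb, Atp5j and 10 of complex I. Much of the nuclear shift came from KO cortex 2. Without that library the median of nuclear members was -0.04 and that of mitochondrial members 0.46. Without KO cortex 1 instead, which leaves KO cortex 2 as the lone KO library and assumes it varies like the other groups, 3 mitochondrial and 18 nuclear members were called higher and 0 lower, beside 1155 genes higher and 1729 lower of all 24680.

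In cerebellum the same genes ran slightly the other way, with no member past the threshold. All 13 mitochondrial members had a log2 fold change below 0 (median -0.15), including mt-Nd3, whose sign depended on its nuclear copy, and 69 of 84 nuclear members did (median -0.10). Without WT cerebellum 2 the medians were 0.10 for mitochondrial and 0.00 for nuclear members, so the negative sign rested on that library. Levels lay wholly above WT for 3 nuclear members (Atp5k, Atp5s and Ndufab1), where 4.78% of all genes did so, and wholly below for Ndufa4l2 alone, where 4.52% did so. The smallest p-values belonged to mt-Nd3 (log2 fold change -1.12 ± 0.51), Cox6a2, the muscle and heart isoform of subunit 6a (-1.58 ± 0.75), and Ndufa4l2, a relative of Ndufa4 known for induction by hypoxia (-0.60 ± 0.29), each with an adjusted p of 1. The value of mt-Nd3 turned to 0.07 with the reads of its copy added. Ndufa4l2 had 1.37, 0.872 and 1.13 CPM in KO cerebellum and 1.76, 1.91 and 1.41 CPM in WT cerebellum. Cox6a2 had 0.088, 0.420 and 0.589 CPM in KO cerebellum and 1.5, 1.71 and 0.118 CPM in WT cerebellum, so its genotypes overlapped.

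The most abundant mitochondrial transcripts did not separate the genotypes in cerebellum. mt-Co1 had 9615, 12102 and 9704 CPM in KO and 9189, 14619 and 11061 CPM in WT, and mt-Cytb 2264, 2903 and 2421 CPM in KO and 2259, 3733 and 2633 CPM in WT. Their log2 fold changes were -0.15 ± 0.18 and -0.18 ± 0.17, those of mt-Nd5 and mt-Nd1 -0.16 ± 0.19 and -0.15 ± 0.23, and that of mt-Nd6 -0.01 ± 0.25. In each of them the highest value belonged to WT cerebellum 2.

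In hippocampus the 2 genomes leaned in opposite directions, again with no member past the threshold. Markers of other cells also leaned one way in KO hippocampus: fold changes were below 0 for 6 of 6 choroid plexus markers (median -1.95), 5 of 5 erythroid markers (-1.47) and 7 of 7 oligodendrocyte markers (-0.72), with 0 called, and their part in the results was not tested. The log2 fold change was above 0 for 12 of 13 mitochondrial members (median 0.09) and below 0 for 68 of 84 nuclear members (median -0.10). Levels lay wholly above WT for 6 mitochondrial members and 3 nuclear ones, where 18.1% of all genes did so. They lay wholly below WT for 35 nuclear members and for mt-Nd3, where 18.6% of all genes did so. With the reads of Gm28438 added, mt-Nd3 had 52.5 and 44.1 CPM in KO hippocampus and 37.1 and 46.8 CPM in WT hippocampus, which overlapped. The 35 included Atp5a1, Atp5b and Atp5c1, the alpha, beta and gamma subunits of the ATP synthase head, and Sdha. mt-Nd2, a complex I subunit, had 1584 and 1389 CPM in KO hippocampus and 1116 and 1118 CPM in WT hippocampus, a log2 fold change of 0.41 ± 0.25 with an adjusted p of 1. Uqcr10 had 33.0 and 38.2 CPM in KO hippocampus and 42.8 and 45.2 CPM in WT hippocampus (log2 fold change -0.31 ± 0.20). Atp5mpl, a small subunit of ATP synthase, had 28.05 and 23.7 CPM in KO hippocampus and 33.3 and 31.8 CPM in WT hippocampus (-0.33 ± 0.21), both with an adjusted p of 1. mt-Co1 and mt-Cytb differed least, by 0.03 ± 0.22 and 0.00 ± 0.21 on the log2 scale, beside 0.24 ± 0.23 for mt-Nd5, 0.06 ± 0.29 for mt-Nd1 and 0.23 ± 0.30 for mt-Nd6.

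Averaged over the 3 regions, limma called 0 members and 0 of all genes (0%). Before adjustment 2.38% of all genes were higher and 2.02% lower at p under 0.05. The medians were 0.23 for mitochondrial and 0.03 for nuclear members. The smallest p-values belonged to mt-Nd2 (log2 fold change 0.38 ± 0.14), mt-Nd4l (0.22 ± 0.10) and mt-Nd5 (0.28 ± 0.13), each with an adjusted p of 1, and mt-Co1, mt-Cytb, mt-Nd1 and mt-Nd6 had 0.15 ± 0.12, 0.16 ± 0.11, 0.23 ± 0.16 and 0.27 ± 0.17.

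**Figure D2:**
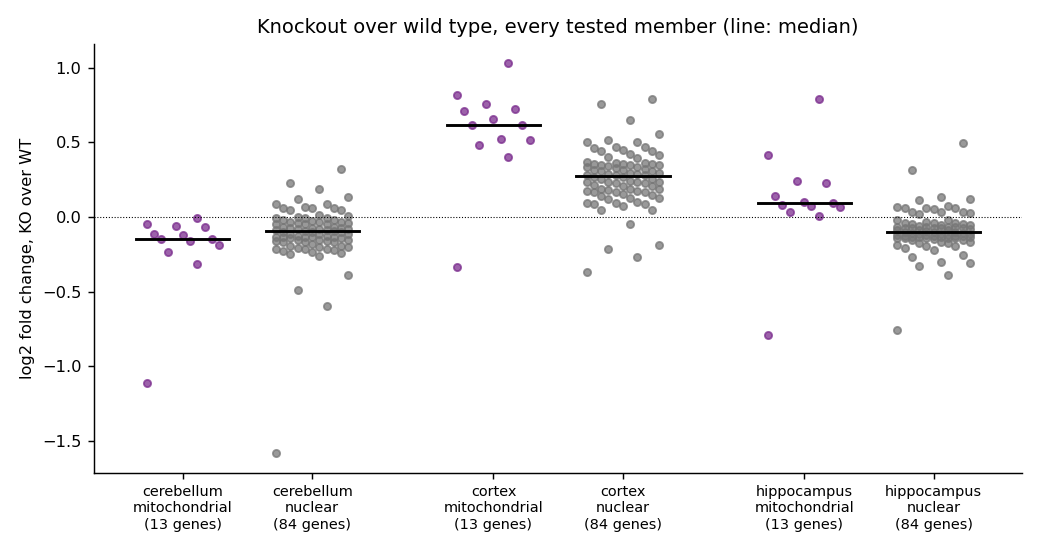
Log2 fold change of KO over WT for each tested member (points) by region and genome of origin, with the median (line). Medians are -0.15 and -0.10 in cerebellum, 0.62 and 0.27 in cortex and 0.09 and -0.10 in hippocampus for mitochondrial and nuclear members in turn, and no point passes the adjusted threshold.

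Whether the KO effect differed between regions was tested directly, and 0 members passed in any of the 3 differences (0% of all genes). Between cerebellum and cortex all 13 mitochondrial members had a lower KO effect in cerebellum (median difference -0.78), as did 78 of 84 nuclear members (median -0.40). At an unadjusted p under 0.05, 8 mitochondrial and 6 nuclear members were lower and 0 higher, beside 3.28% lower and 2.03% higher over all genes. mt-Nd4l (-0.73 ± 0.23), mt-Nd4 (-1.05 ± 0.33) and mt-Cytb (-0.80 ± 0.27) had the smallest p-values, each with an adjusted p of 0.788. Between hippocampus and cortex the median differences were -0.47 and -0.38 for mitochondrial and nuclear members, led by Ndufv3 (-0.63 ± 0.27), Ndufa13 (-0.79 ± 0.33) and Atp5j (-0.60 ± 0.26), each with an adjusted p of 0.926. Here 8 nuclear members were lower and 0 higher before adjustment, beside 1.79% lower and 1.38% higher over all genes. Between cerebellum and hippocampus they were -0.24 and -0.01, led by mt-Nd2 (-0.46 ± 0.32), Ndufa4l2 (-0.66 ± 0.47) and Cox6a2 (-1.47 ± 1.08), each with an adjusted p of 1. At an unadjusted p under 0.05, 0 members differed, beside 0.750% of all genes higher and 0.741% lower. The first 2 differences share the cortical libraries. Without KO cortex 2 the nuclear medians were -0.03 and -0.02, and the mitochondrial ones -0.61 and -0.32.

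Genes that serve the chain also had no member past the threshold in any KO comparison. In cortex the 13 citrate cycle enzymes all had fold changes above 0 (median 0.21), in cerebellum all 13 lay below 0 (median -0.13). In hippocampus 1 of the 13 lay above 0 (median -0.06). Mitochondrial ribosomal proteins were above 0 in cortex for 72 of 77 (median 0.23), in cerebellum for 30 and in hippocampus for 19. Assembly factors were above 0 for 31 of 45 in cortex, 28 in cerebellum and 21 in hippocampus. Carriers and shuttles of the inner membrane were above 0 in cortex for 18 of 20, in cerebellum for 5 and in hippocampus for 6. Glycolytic genes, with 0 called, were above 0 in cortex for 16 of 17 (median 0.26), in cerebellum for 3 and in hippocampus for 3. The lean in cortex was thus not particular to respiratory genes.

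Between regions, single subunits of complexes I, III, IV and V passed the threshold. Regions were compared over both genotypes together, cerebellum with 6 libraries and cortex and hippocampus with 4 each. In cerebellum 0 of 13 mitochondrial and 6 of 84 nuclear members were higher than in cortex, where 23.0% of all genes were called higher. Lower calls covered 7 mitochondrial and 14 nuclear members, where 25.3% of all genes were called lower. Against hippocampus the counts for cerebellum were 0 mitochondrial and 6 nuclear members higher (22.6% of all genes) and 4 mitochondrial and 15 nuclear members lower (24.7% of all genes). Nuclear members were thus called at a lower rate than all genes in both comparisons, a difference that was not tested. At an unadjusted p under 0.05, 8 members were higher and 27 lower in cerebellum than in cortex (26.6% and 28.4% of all genes), and 7 higher and 24 lower than in hippocampus (26.3% and 27.5%). Levels lay wholly above cortex for Cox7a1, Ndufab1 and Ndufb2 (16.2% of all genes) and wholly below for Cox6a2, Cox8a, Ndufa8 and Ndufb6 (18.0%). Against hippocampus they lay wholly above for the first 3 and Cox4i2 (20.3%) and wholly below for 2 mitochondrial and 12 nuclear members (22.3%).

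Complex I held the member with the smallest p-value. Ndufb2, an accessory subunit of its membrane arm, had 29.5 to 39.5 CPM in cerebellum (median 37.7 CPM, n = 6). It had 19.0, 18.3, 17.3 and 17.6 CPM in cortex and 19.3, 19.4, 18.9 and 16.9 CPM in hippocampus. The lowest cerebellar value, that of WT cerebellum 2, exceeded every value of the other regions. The gene was 2.04-fold higher in cerebellum than in cortex (log2 fold change 1.03 ± 0.10, adjusted p = 2.44e-06) and 1.98-fold higher than in hippocampus (0.98 ± 0.10, adjusted p = 3.26e-06). Its promoter, printed above, was 1 of 4 member promoters with the CRE letters.

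Ndufab1, the mitochondrial acyl carrier protein, had 42.9 to 53.6 CPM in cerebellum, 31.7, 36.7, 26.9 and 30.6 CPM in cortex and 41.8, 36.99, 36.98 and 38.6 CPM in hippocampus, with no overlap between cerebellum and either region. It was 1.52-fold higher in cerebellum than in cortex (adjusted p = 8.80e-05) and 1.24-fold higher than in hippocampus (adjusted p = 0.00979). Ndufs1, the largest core subunit, was 1.25-fold higher in cerebellum than in cortex (adjusted p = 0.0133). Its levels overlapped between these regions, and its call was not followed in the fits without 1 library. In the lower direction, Ndufb9 had a median of 30.9 CPM in cerebellum, 46.8 CPM in cortex and 50.6 CPM in hippocampus, and Ndufa8 25.1, 35.8 and 37.5 CPM. Ndufb9, an accessory subunit, was lower in cerebellum by -0.63 ± 0.15 on the log2 scale against cortex and -0.65 ± 0.15 against hippocampus (adjusted p = 0.00374 and 0.00295), and Ndufa8, another, by -0.57 ± 0.14 and -0.51 ± 0.14 (adjusted p = 0.00405 and 0.00772). Ndufb9 shares 23.4% of its 50-base words with another annotated gene, which has no row in the deposited counts. How reads of these words were counted is not known. Further called members share words with other annotated genes too, such as Ndufab1 (12.3%), Uqcrb (19.2%) and Cox7a2l (17.7%). In WT libraries alone the calls of Ndufab1 against hippocampus, Ndufb9 against cortex and Ndufa8 against both regions were lost. Of the 38 nuclear complex I members, 3 were higher and 4 lower in cerebellum than in cortex, and the others did not pass. Of all genes, 23.0% were called higher and 25.3% lower.

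Complex II, which has no mitochondrially encoded subunit, had 0 of 4 members called in any region comparison. In cerebellum against cortex 23.0% of all genes were called higher and 25.3% lower. Sdha had 263 to 362 CPM in cerebellum, 253 to 427 CPM in cortex and 265 to 300 CPM in hippocampus, overlapping throughout. Sdhb, the iron-sulfur subunit, came closest against cortex, at -0.25 ± 0.10 on the log2 scale with an adjusted p of 0.0594.

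Among the 9 nuclear members of complex III, Uqcrb, a small subunit, was higher in cerebellum than in cortex (33.5 to 55.6 CPM against 27.8 to 47.3 CPM, log2 fold change 0.37 ± 0.13, adjusted p = 0.0310). Uqcr10 and Uqcrq, further small subunits, were lower (-0.37 ± 0.13 and -0.34 ± 0.13, adjusted p = 0.0268 and 0.0422). The ranges of all 3 overlapped between the regions, and their calls were lost in 5, 5 and 8 of the 10 fits that left out 1 library, that of Uqcrb without WT cerebellum 2 and those of Uqcr10 and Uqcrq without KO cortex 2. Against hippocampus Uqcr10 and Uqcr11 were lower in cerebellum, with 21.0 to 32.0 CPM against 33.0 to 45.2 CPM for Uqcr10 and 14.9 to 20.04 CPM against 23.5 to 28.7 CPM for Uqcr11. Neither overlapped, at -0.63 ± 0.13 and -0.54 ± 0.12 on the log2 scale (adjusted p = 0.00119 and 0.00251), and both calls held in all 10 fits without 1 library.

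Complex IV, whose nuclear subunits exist in tissue isoforms, held the largest differences in both directions. Cox7a1, known as the heart and skeletal muscle isoform of subunit 7a, had 3.32, 2.68 and 3.81 CPM in KO cerebellum and 3.44, 2.7 and 3.10 CPM in WT cerebellum. It had 0.637, 1.40, 1.07 and 1.6 CPM in cortex and 1.65, 1.047, 1.34 and 0.826 CPM in hippocampus. Every cerebellar value lay above every other, and the gene was 2.69-fold higher in cerebellum than in cortex (log2 fold change 1.43 ± 0.28, adjusted p = 0.000976) and 2.62-fold higher than in hippocampus (1.39 ± 0.28, adjusted p = 0.00125). Its counterpart Cox7a2, the isoform of most tissues, stood at 28.7 to 38.1 CPM in cerebellum and 37.9 to 47.9 CPM in cortex and was lower in cerebellum (-0.33 ± 0.11, adjusted p = 0.0216), a call lost in 4 of 10 fits without 1 library, KO cortex 2 among them.

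Cox6b2, known as the testis isoform of subunit 6b, had 1.26 to 2.08 CPM in cerebellum, 0.637, 1.51, 0.460 and 0.799 CPM in cortex and 0.892, 1.26, 0.503 and 1.02 CPM in hippocampus. It was 2.11-fold higher in cerebellum than in cortex (adjusted p = 0.0147) and 1.93-fold higher than in hippocampus (adjusted p = 0.0283). The call against hippocampus was lost in 5 of 10 fits without 1 library and in WT libraries alone, and that against cortex in 1 of 10, without WT cortex 2. Cox6b1, its common counterpart, was not called, with medians of 71.4 CPM in cerebellum, 81.5 CPM in cortex and 90.4 CPM in hippocampus. Cox4i2, the isoform of subunit 4 known from lung, had 0.575 to 1.54 CPM in cerebellum, 0.764 to 1.07 CPM in cortex and 0.223, 0.480, 0.545 and 0.236 CPM in hippocampus. Its levels were 2.93-fold higher in cerebellum than in hippocampus (adjusted p = 0.00502), and cerebellum and cortex overlapped. The main isoform Cox4i1 was lower in cerebellum than in cortex (118 to 178 CPM against 163 to 249.1 CPM, log2 fold change -0.44 ± 0.13, adjusted p = 0.0125) and than in hippocampus (-0.36 ± 0.13, adjusted p = 0.0327). Its call against cortex was lost in 2 of 10 fits without 1 library, KO cortex 2 among them, and that against hippocampus in 8 of 10. The rarest isoforms, Cox8b and Cox7b2, stayed below 1 CPM in every library.

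Cox8a, the abundant isoform of subunit 8, had 127, 124 and 118 CPM in KO cerebellum and 125, 156 and 156 CPM in WT cerebellum. Cortex had 231, 257, 238 and 194 CPM and hippocampus 215, 230, 213 and 261 CPM, all above the cerebellar values. The fold was 0.583 against cortex and 0.584 against hippocampus (log2 fold change -0.78 ± 0.10 for both, adjusted p = 2.71e-05 and 2.52e-05). Subunit 6a was lower than in cortex in both isoforms. Cox6a2 had 0.088 to 1.71 CPM in cerebellum, 4.03, 5.91, 4.21 and 2.97 CPM in cortex and 1.6, 2.14, 2.60 and 1.46 CPM in hippocampus. Against cortex its log2 fold change was -2.72 ± 0.52 (adjusted p = 0.00107), resting on 2 to 50 reads per cerebellar library, and against hippocampus -1.6 ± 0.53 (adjusted p = 0.0273), a call lost in 4 of 10 fits without 1 library. Cox6a1, the common isoform, had 32.6 to 66.2 CPM in cerebellum and 74.9, 154, 69.7 and 65.8 CPM in cortex, where the value of 154 CPM came from KO cortex 2 (-0.97 ± 0.22, adjusted p = 0.00349). Its call against cortex was lost in WT libraries alone, and it was not called against hippocampus. Cox7a2l, which takes part in joining complexes III and IV into supercomplexes, was lower in cerebellum than in cortex (-0.52 ± 0.15, adjusted p = 0.0130) and than in hippocampus (-0.60 ± 0.15, adjusted p = 0.00593). The call against cortex was lost without KO cortex 2, and both were lost in WT libraries alone.

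**Figure D3:**
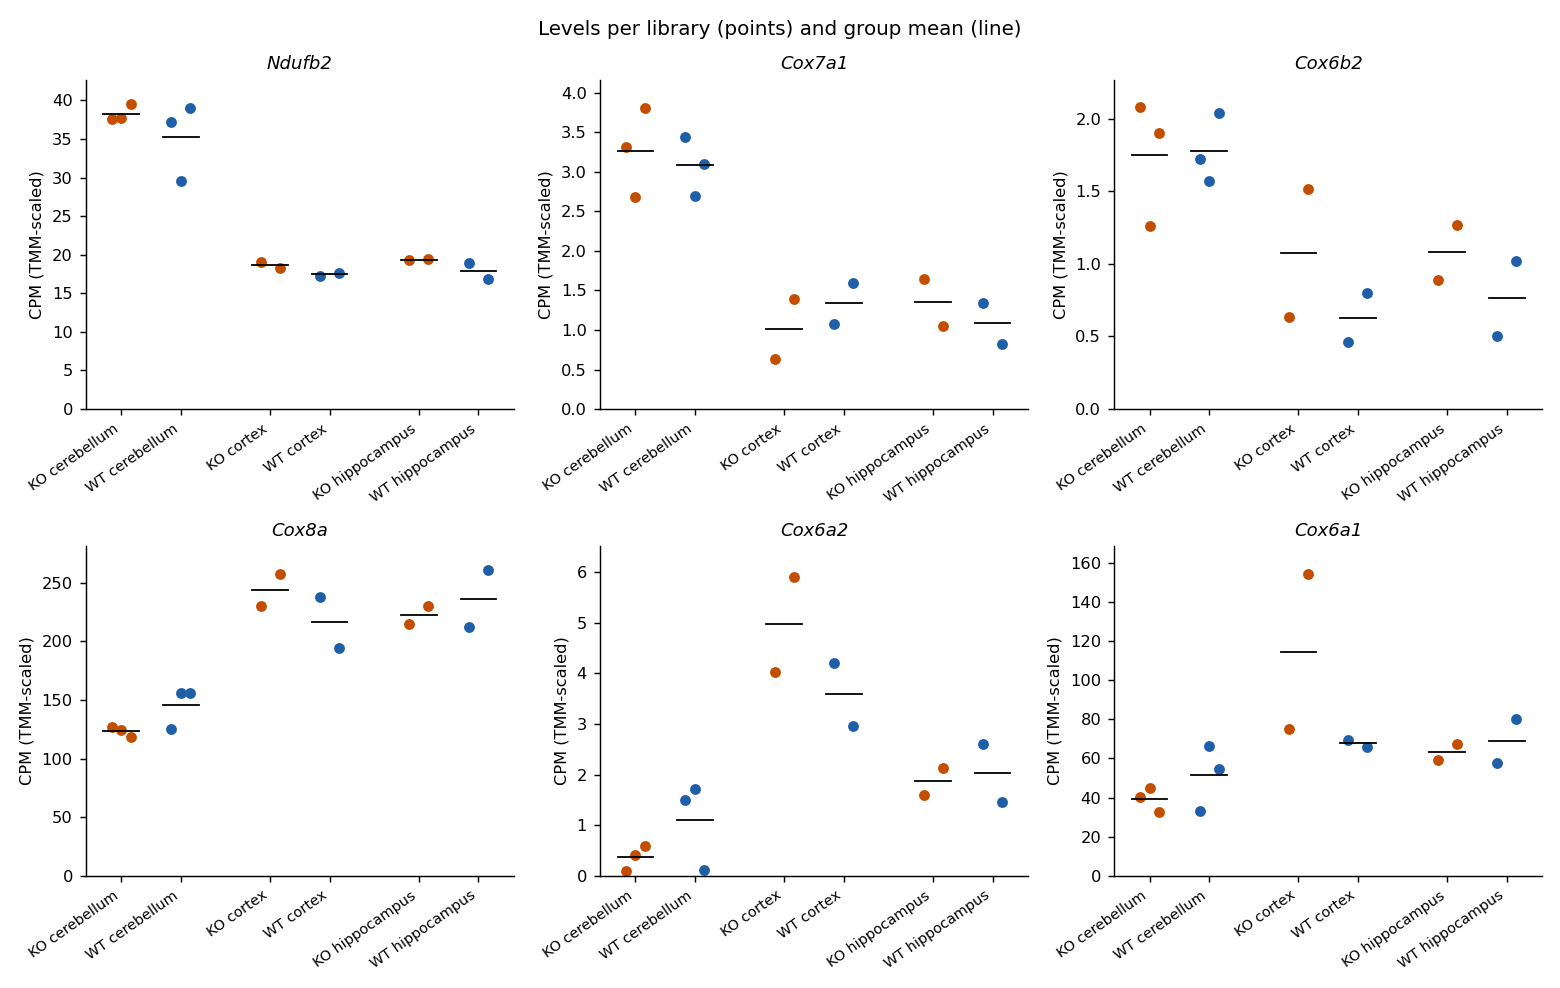
Levels (CPM on TMM-scaled totals) of 6 nuclear subunits in each library (points) with group means (lines), KO left of WT in each region, each axis starting at 0. Ndufb2 and Cox7a1 are higher in all 6 cerebellar libraries than in any other, Cox8a is lower in all 6, and the Cox6a1 value of 154 CPM belongs to KO cortex 2.

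In complex V, 0 of 17 nuclear members were higher in cerebellum than in cortex and 2 were lower, beside 23.0% and 25.3% of all genes. Atp5d, the delta subunit of the head, had 58.8 to 83.3 CPM in cerebellum and 77.8 to 120 CPM in cortex (log2 fold change -0.48 ± 0.11, adjusted p = 0.00355). Atp5g2, 1 of 3 genes for the same c-ring protein, was lower in cerebellum than in cortex (-0.25 ± 0.09, adjusted p = 0.0381) and than in hippocampus (-0.25 ± 0.09, adjusted p = 0.0439). These calls were lost in 5 of 10 and 8 of 10 fits without 1 library, KO cortex 2 among the first 5, and in 2 and 4 of 8 other settings. The other c-ring genes Atp5g1 and Atp5g3 were not called, at 54.2 ± 6.1 and 45.5 ± 3.1 CPM in cerebellum (SD, n = 6), 53.2 ± 12.3 and 39.4 ± 5.4 CPM in cortex and 58.6 ± 6.2 and 44.3 ± 2.5 CPM in hippocampus (SD, n = 4 each). Atp5mpl was lower in cerebellum than in hippocampus (-0.43 ± 0.14, adjusted p = 0.0194), a call lost in 3 of 10 fits without 1 library. Atp5b, the nuclear member with the highest CPM before division by length, had 617 to 903 CPM in cerebellum, 617 to 1082 CPM in cortex and 642 to 746 CPM in hippocampus.

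**Figure D4:**
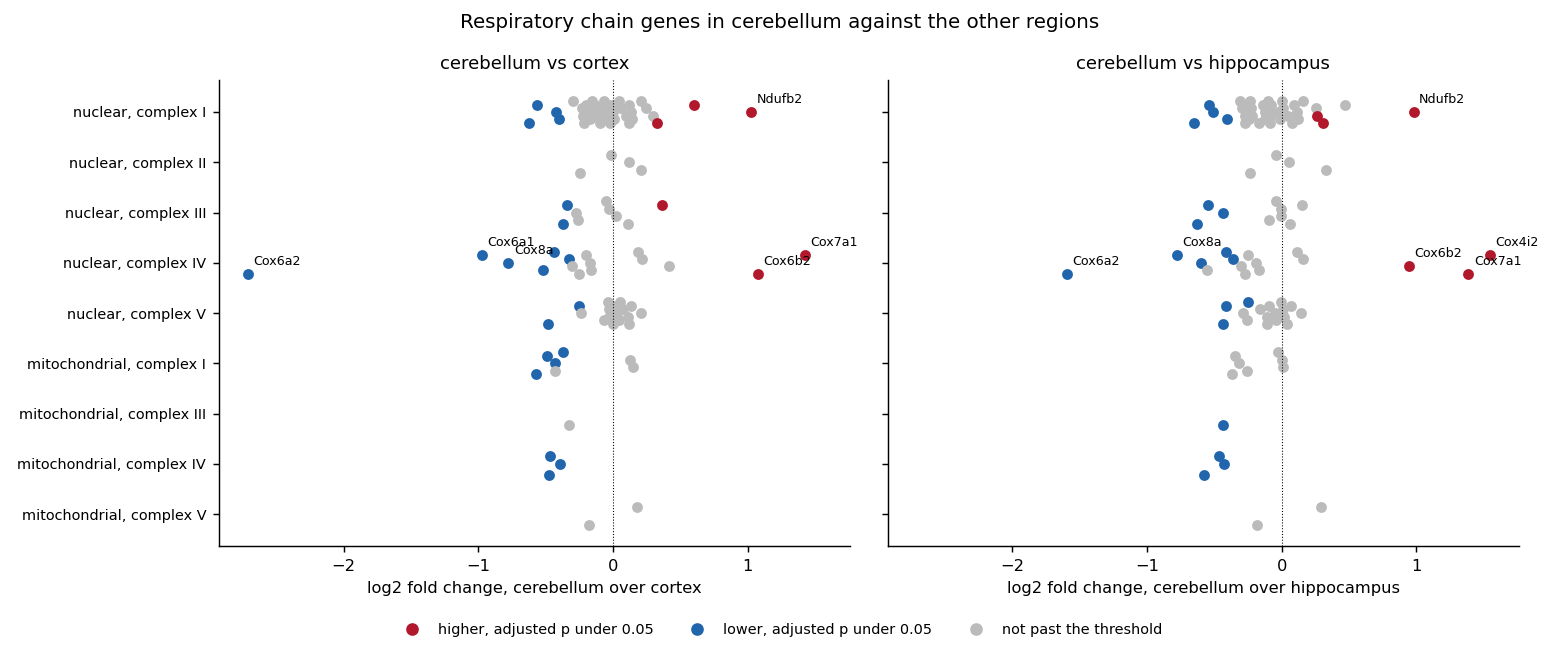
Log2 fold change of cerebellum over cortex (left) and over hippocampus (right) for each tested member (points), in rows by genome of origin and complex. Red and blue points pass the adjusted threshold as higher and lower. Ndufb2, Cox7a1 and Cox6b2 lie at 0.95 or more on both sides, and Cox8a lies at -0.78 on both.

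Mitochondrial transcripts were lower in cerebellum in the pooled comparison. The 7 called against cortex were mt-Co3 (log2 fold change -0.48 ± 0.12, adjusted p = 0.00436), mt-Nd5 (-0.57 ± 0.15, adjusted p = 0.00622), mt-Co1 (-0.47 ± 0.14, adjusted p = 0.0136), mt-Nd4l, mt-Nd4, mt-Nd2 and mt-Co2. mt-Co1 had 9189 to 14619 CPM in cerebellum (median 10383 CPM), 16480, 20135, 11115 and 14323 CPM in cortex and 17067, 16233, 15478 and 17114 CPM in hippocampus. Cerebellum overlapped cortex and lay wholly below hippocampus. In WT libraries alone, which leaves out the KO libraries of both regions, the median over mitochondrial members was 0.02, with 0 called. The median over nuclear members was then 0.14, with 8 called higher and 1 lower, beside 3487 genes higher and 4080 lower of all 24680. Without KO cortex 1 alone the mitochondrial median was -0.42, and without KO cortex 2 alone it was -0.30. The calls of mt-Co1, mt-Nd4l, mt-Nd4 and mt-Nd2 were lost without KO cortex 2, those of mt-Nd2 and mt-Co2 in 7 of 10 fits each, and those of mt-Nd5 and mt-Co3 held in all 10 fits without 1 library. Nuclear members without KO cortex 2 were called higher in 17 cases and lower in 6, beside 5556 genes higher and 5806 lower.

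Against hippocampus 4 mitochondrial members were lower, mt-Co1 (-0.58 ± 0.14, adjusted p = 0.00400), mt-Co3 (-0.47 ± 0.12, adjusted p = 0.00516), mt-Cytb (-0.44 ± 0.13, adjusted p = 0.0158) and mt-Co2 (-0.43 ± 0.15, adjusted p = 0.0286). The calls of mt-Cytb and mt-Co2 were lost in 2 and 5 of 10 fits without 1 library. In WT libraries alone 0 of them were called, beside 3475 genes higher and 4129 lower of all 24680. The median over mitochondrial members was then -0.12. mt-Nd6 was not called in any region comparison. Its reads were divided by those of mt-Nd1, mt-Nd2, mt-Co1, mt-Nd4, mt-Nd5 and mt-Cytb, which leaves out the other heavy-strand mRNAs. Per 1000 of these reads mt-Nd6 had 16.5 to 23.3 in cerebellum, 16.6, 9.05, 9.06 and 17.3 in cortex and 13.2 to 15.9 in hippocampus. The low cortical values belonged to KO cortex 2 and WT cortex 2.

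Hippocampus and cortex did not differ past the threshold in any member, where 5.49% of all genes were higher in hippocampus and 6.48% lower. At an unadjusted p under 0.05, 6 members were higher and 2 lower, where 11.6% of all genes were higher and 13% lower. DESeq2 called 2 members higher and 1 lower, beside 1666 genes higher and 2009 lower of 24607. The limma fit with genotype and replicate number as a block called 2 nuclear members higher, and 1 nuclear and 1 mitochondrial member lower. Of all genes it called 1845 higher and 1872 lower. Uqcrb (log2 fold change 0.46 ± 0.14, adjusted p = 0.0504), Cox4i2 (-1.33 ± 0.41, adjusted p = 0.0530) and Ndufab1 (0.30 ± 0.09, adjusted p = 0.0556) had the smallest p-values, and all 3 passed the threshold by limma under that block. Levels lay wholly above cortex for Ndufab1 and Ndufc1, where 8.90% of all genes did so, and wholly below for Cox4i2, Cox6a2 and Ndufa4l2, where 9.89% did so. Without KO cortex 2, 8 nuclear members were called higher in hippocampus, beside 1639 genes of all.

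Several regulators of the chain differed between regions. Of 15 regulators of nuclear respiratory genes, 10 were higher and 1 lower in cerebellum than in cortex, beside the 23.0% and 25.3% of all genes. Esrrb, an estrogen-related receptor, was 4.69-fold higher (adjusted p = 4.09e-06), Gabpb2, a subunit of GABP, 3.12-fold (adjusted p = 3.01e-07) and Ppargc1b, a PGC-1 coactivator, 2.53-fold (adjusted p = 8.42e-07), while Hcfc1, a cofactor of transcription, was lower at 0.793-fold (adjusted p = 0.00432). Against hippocampus 11 were higher and 1 lower, beside 22.6% and 24.7% of all genes, led by Esrrg at 4.46-fold (adjusted p = 5.12e-08). Esrrg was lower in hippocampus than in cortex, at 0.462-fold (adjusted p = 0.000155), as was Ppargc1a, the PGC-1 alpha gene, at 0.754-fold (adjusted p = 0.0228).

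Of 33 genes for mitochondrial DNA upkeep, transcription and RNA processing, 13 were higher and 2 lower in cerebellum than in cortex. Of all genes, 23.0% were called higher and 25.3% lower in that comparison. Polg2, the accessory subunit of the mitochondrial DNA polymerase, was 4.65-fold higher (adjusted p = 1.08e-06), Ssbp1, the mitochondrial single-strand binding protein, 1.66-fold (adjusted p = 0.000163) and Mtpap, the mitochondrial poly(A) polymerase, 1.44-fold (adjusted p = 0.000779). Top1mt, the mitochondrial topoisomerase, was lower at 0.725-fold (adjusted p = 0.0111). Of 17 glycolytic genes, 2 were higher and 11 lower in cerebellum than in cortex, beside the same 23.0% and 25.3% of all genes. Hk2 (2.37-fold, adjusted p = 0.000145) and Aldoc (1.56-fold, adjusted p = 0.00135) were higher, and Ldha, a lactate dehydrogenase, was lower at 0.462-fold (adjusted p = 1.01e-06). Assembly factors of the chain had 5 higher and 7 lower of 45, and mitochondrial ribosomal proteins 6 and 7 of 77. Citrate cycle enzymes had 2 and 3 of 13, and carriers and shuttles 2 and 4 of 20. The same 23.0% and 25.3% of all genes stand beside these counts, and no difference from them was tested. Levels of these genes were measured in whole tissue whose cell types also differ between the regions: summed astrocyte markers were 2548 to 3621 CPM in cerebellum against 5827 to 6217 CPM in cortex. Single astrocyte genes went both ways, with Aqp4 (2.56-fold) and Slc1a3 (1.82-fold) called higher in cerebellum and Slc1a2 (0.259-fold) and Aldh1l1 (0.78-fold) lower. Their part in the results was not tested.

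Most mitochondrial genes with near-identical nuclear copies cannot be counted with certainty. Every 50-base word of mt-Co2 also occurs in other annotated genes, as do 99.9% of those of mt-Co3, 99.5% of mt-Atp6, 98.8% of mt-Nd4l, 98.0% of mt-Nd3, 62.2% of mt-Nd4 and 51.1% of mt-Co1. The copies lie mainly side by side on chromosome 1, between 24611535 and 24616197, and on chromosome 2. The ATP synthase subunit mt-Atp6, the mt-Co2 and mt-Co3 genes, mt-Nd4l and the aligned part of mt-Nd4 match their chromosome 1 copies at 100% of bases. How reads that map to several places were counted is not given in the sources used here. When the reads of copies sharing at least 20% of these words were added to their gene, more mitochondrial members were called lower in cerebellum. There were 8 against cortex and 7 against hippocampus, where there had been 7 and 4 before. In the main fits 25.3% and 24.7% of all genes were called lower. mt-Co3 then had a log2 fold change of -0.78 against cortex and -0.91 against hippocampus, and mt-Co2 had -0.66 and -0.87.

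mt-Nd3 and its copy Gm28438 split their reads unevenly across libraries. In KO cerebellum mt-Nd3 was assigned 182, 303 and 147 reads, and in WT cerebellum 502, 738 and 149. Gm28438 was assigned 508, 885 and 543 reads in KO cerebellum and 179, 308 and 603 in WT cerebellum. The genes thus ran opposite to each other. Among the reads of both, mt-Nd3 held 26.4%, 25.5% and 21.3% in KO cerebellum and 73.7%, 70.6% and 19.8% in WT cerebellum. In cortex it held 20% and 21.8% in KO and 57.6% and 19.8% in WT, and in hippocampus 18.1% and 19.6% in KO and 58.3% and 20.9% in WT. The high shares belonged to 4 of the 7 WT libraries, WT cerebellum 1 and 2, WT cortex 2 and WT hippocampus 2, and the other 10 libraries lay between 18.1% and 26.4%. All 3 WT libraries numbered 2 were among the high ones and all 3 WT libraries numbered 3 among the low ones. The labels do not say what a number stands for. Substrains of C57BL/6 are known to differ at single bases of the mitochondrial genome, and the labels give no substrain. Whether these 4 WT libraries and the other 10 share 1 mitochondrial genome was not tested. No KO library was among the high ones, while each region had WT libraries of both kinds. A difference in substrain would thus overlap in part with the genotype in the KO comparisons, and its share in them was not tested. With the reads of both genes added, the KO effect on mt-Nd3 in cerebellum was 0.07 on the log2 scale, against -1.12 before. The pair differs over its aligned length in the base in capitals above.

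**Figure D5:**
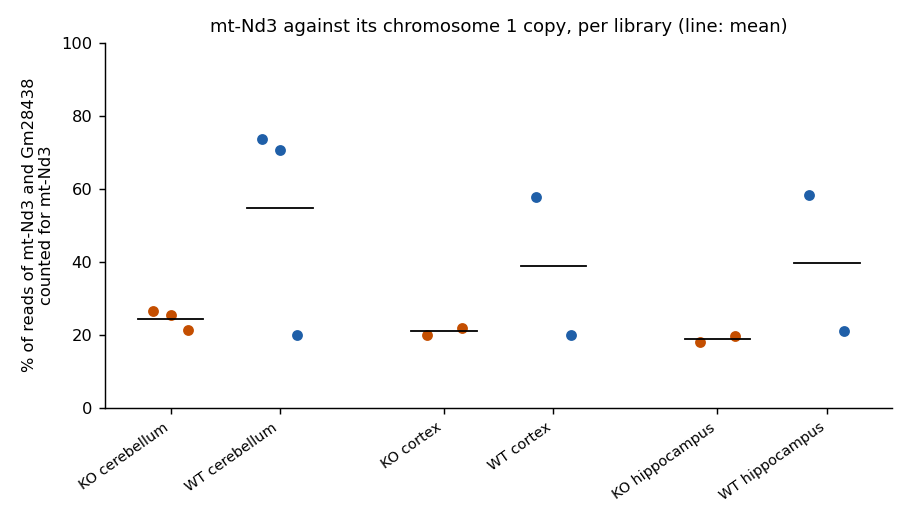
Reads assigned to mt-Nd3 as a percentage of those assigned to mt-Nd3 and Gm28438 together, for each library (points) with group means (lines), KO left of WT in each region. Libraries fall at 57.6% to 73.7% for 4 WT libraries and at 18.1% to 26.4% for the 7 KO and the 3 remaining WT libraries.

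mt-Atp8, the smallest mitochondrial protein gene, shares no 50-base word with another annotated gene. Sequence outside annotated genes was not searched. mt-Atp8 lies between mt-Co2 and mt-Atp6, whose chromosome 1 copies leave a stretch from 24614651 to 24614885 outside both. Whether mt-Atp8 has a copy there was not tested. It had 188, 67 and 141 reads in KO cerebellum and 75, 311 and 175 in WT cerebellum, 331 and 60 in KO cortex and 22 and 180 in WT cortex, and 154 and 150 in KO hippocampus and 103 and 87 in WT hippocampus. Libraries of the same group differed most in cortex, and no comparison called it. The ribosomal RNAs of the mitochondrial genome, counted beside these genes, spanned 261 to 7216 CPM, also within groups (5914 and 606 CPM in KO cortex, 261 and 6064 CPM in WT cortex).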

How the data were processed

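The deposited table holds whole-number counts of reads for every gene in all 14 libraries, and 0 columns of other samples. The submitters' processing notes name Trim Galore 0.6.4, cutadapt 2.10, STAR 2.7.3a, featureCounts 2.0.1 and the build GRCm38.p6 (mm10). Settings for strand and for reads with several matches are not given in those sources. Symbols came from GENCODE M21, which matched 48058 identifiers (99.2%).

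From these counts, libraries were scaled by TMM, genes kept by filterByExpr (24680) and all 14 libraries fitted in 6 groups with edgeR 4.0.16 (R 4.3.3, robust quasi-likelihood, biological coefficient of variation 24.7%). SE is the log2 fold change over the square root of F. The mean KO effect used limma 3.58.1 (voom) with genotype and replicate number together as a random block (correlation 0.096). KO and WT libraries thus never shared a block in it. DESeq2 1.42.0 was an alternative. P-values are Benjamini-Hochberg adjusted over all genes at 0.05. CPM and CPM per kilobase of exon were computed here. Tests were run on simulated data first. In cerebellum, same-numbered KO and WT libraries deviated together (r = 0.28, 0.75 and 0.35 over 18976 genes, numbers from the titles). Unlike-numbered pairs of 1 and 3 did so as much (KO 1 with WT 3 0.34, KO 3 with WT 1 0.44), and only number 2 stood apart. An edgeR fit of cerebellum alone, with the number as a factor shared by KO and WT, called 0 members. Copies were found by 50-base words with Biopython 1.88.

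Named were the 4 mitochondrial genes with most reads, mt-Nd6 and any that passed, up to 2 passing nuclear members per complex and direction (or the 3 smallest p-values), tissue isoforms, the leading nuclear gene per complex and up to 3 passing genes per list. The others were named after their values were seen. Members and lists were chosen with earlier results of these data known. PCR duplicates cannot be recognised, so read numbers carry at least counting error.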

Additional observations from a re-analysis of the deposited data

Results flagged for a closer look

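Levels of the named members and some read shares were compared among the 4 to 6 libraries of each region, both genotypes together. Of 147 sets, 15 had a library far from the others by Dixon's ratio. Chance gives about 1 in 20 for independent sets. These sets share the same libraries and their members were named partly by p-value, so the count is no test. The cause was not tested for any of them.

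KO cortex 2 held 9 of these values, all above the other 3 cortical libraries. In complex I, Ndufa8 had 48.21 CPM there against 35.06 to 36.21 CPM, and Ndufv3, a flavoprotein-arm subunit, 42.84 CPM against 25.73 to 26.4 CPM. Sdha of complex II had 427.1 CPM against 253.3 to 275.2 CPM, and Uqcr11 of complex III 25.86 CPM against 18.92 to 19.66 CPM. In complex IV, Cox6a1 had 154.3 CPM against 65.81 to 74.91 CPM, Cox6b1 126.3 CPM against 77.77 to 83.54 CPM, Cox7a2l 78.14 CPM against 51.16 to 53.07 CPM, and Cox7b 85.74 CPM against 53.95 to 59.13 CPM. Atp5j, a stalk subunit of ATP synthase, had 96.13 CPM against 57.21 to 63.79 CPM.

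WT cerebellum 2 lay below the other cerebellar libraries for Ndufb2, with 29.52 CPM against 37.25 to 39.52 CPM. It lay above them for Atp5g1, with 66.4 CPM against 49.76 to 53.03 CPM, for mt-Nd4, with 2548 CPM against 1427 to 1847 CPM, and for mt-Nd4l, with 51.15 CPM against 35.57 to 38.54 CPM. In hippocampus, mt-Nd1 was low in WT hippocampus 3, with 2352 CPM against 2542 to 2567 CPM, and mt-Nd3 was high in WT hippocampus 2, with 21.63 CPM against 8.636 to 9.795 CPM.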

How the results depend on the processing

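In cerebellum alone, the fit with the number as a factor shared by KO and WT called 0 members, as did the fit without it. Over all 24680 genes the fit with that factor called 18 higher and 86 lower, against 0 without it. The mean KO effect by edgeR, without the block of genotype and number, also called 0 members. No paired analysis was possible because KO and WT share only number 2 in cortex and in hippocampus, taken singly. In hippocampus against cortex, limma with genotype and number as a block called 2 members higher and 2 lower. Of all genes it called 1845 higher and 1872 lower. Limma without the block called 1 higher (1605 of all genes). DESeq2 called 2 higher and 1 lower (1666 and 2009 of all). DESeq2's size factors gave 1 higher (1348 of all) and no filter 1 higher (1287 of 36800). In WT libraries alone 1 member was higher in hippocampus than in cortex (mitochondrial median 0.24), beside 652 of all 24680 genes. There 8 were higher and 1 lower in cerebellum than in cortex (mitochondrial median 0.02, mt-Nd4 0.03), beside 3487 and 4080 genes. Against hippocampus, 3 members were higher and 5 lower in cerebellum, beside 3475 and 4129 genes. With mitochondrial reads out of the denominator, the mitochondrial share was 3.02% in KO hippocampus and the nuclear share 0.54% in WT hippocampus. Reads of copies added, chosen after seeing the data, turned mt-Nd3 in KO cerebellum to 0.07.

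Leaving out 1 library at a time gave these lowest and highest values. In KO cortex, 0 to 21 members were called higher, with medians of 0.39 to 0.70 (mitochondrial) and -0.04 to 0.48 (nuclear). In KO hippocampus medians were 0.06 to 0.17 and -0.14 to -0.05. For the KO effect in cerebellum minus cortex the nuclear median was -0.62 to -0.03. For hippocampus minus cortex the mitochondrial median was -0.64 to -0.32 and the nuclear one -0.61 to -0.02. For cerebellum minus hippocampus the mitochondrial median was -0.37 to 0.01. In cerebellum against cortex 4 to 17 members were higher and 9 to 31 lower, in hippocampus against cortex 0 to 8 and 0 to 3, and in cerebellum against hippocampus 11 to 30 were lower. Among genes with no call in KO cerebellum, mt-Co1 ranged from -0.29 to 0.05, mt-Cytb from -0.33 to 0.05, mt-Nd5 from -0.33 to 0.10, mt-Nd1 from -0.35 to 0.16 and mt-Nd6 from -0.10 to 0.14. mt-Nd6 ranged from -0.01 to 1.17 in KO cortex, and in KO hippocampus mt-Co1 from -0.04 to 0.11 and mt-Cytb from -0.07 to 0.09. Ndufb2, Ndufab1, Cox7a1, Cox8a, Ndufb9 and Ndufa8 kept their calls in all 10 such fits in both comparisons of cerebellum. In WT libraries alone, calls were lost for Ndufb9 against cortex, Ndufab1 against hippocampus and Ndufa8 against both. Those of Cox4i1 and Cox6a2 against both, and of Atp5d, Cox6a1 and Cox7a2 against cortex, were lost there too. Ndufb2, Cox7a1 and Cox8a kept theirs in both comparisons.

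Each cortical and hippocampal group holds 2 libraries, so leaving one out assumes that the lone library varies like the other groups. Members under 2 CPM, such as Cox6a2 in cerebellum and Cox4i2, rest on few reads.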
